A study of Mus musculus with 75 samples.

Results

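Described here are 10 genes of the NF-κB pathway and of TNF receptor signalling in the mouse kidney, Tnfrsf1a, Tnfrsf1b, Tnfrsf12a, Rela, Nfkb1, Relb, Nfkb2, Nfkbia, Tnfaip3, and Birc3. They were chosen by symbol, as 10 of the 32245 genes in a table of raw RNA-Seq counts, and followed across all 12 groups of the study. Whole kidneys were sequenced 3 days after unilateral ureteral obstruction (UUO), in which a ligated ureter blocks the outflow of 1 kidney, and the contralateral kidney (CL) of the mice was the comparison. The 75 libraries came from adult mice, and those of the Veptp and Pdgfb arms were of mixed background. Mice of the antibody arm were C57BL6/J or wild-type mice from the study's other lines. Mice received carprofen, an analgesic and anti-inflammatory drug, before and after UUO surgery, which the paper proposes may have dampened inflammation. IgG mice (8 CL and 8 UUO kidneys) received a human IgG Fc control, and ABT mice (7 CL and 7 UUO) received ABTAA, an antibody that clusters angiopoietin-2 and thereby activates the endothelial receptor TIE2. VeKO mice (6 CL and 8 UUO) carried floxed Veptp, the gene of an endothelial phosphatase that switches TIE2 off, with a tamoxifen-inducible Cre under the endothelial Cdh5 promoter, and VeWT mice (7 CL and 8 UUO) were littermates with 1 floxed allele and the Cre but without induction. The study's methods list fewer VeWT mice than there are libraries labelled VeWT UUO, so the number of mice behind these is not known. PbKO mice (4 CL and 4 UUO) carried floxed Pdgfb, a growth factor gene, with a tamoxifen-inducible Cre under the ubiquitous Actb promoter, so that deletion was not limited to a cell type, and PbWT mice (4 CL and 4 UUO) were floxed mice without Cre. Some PbWT CL kidneys came from sham-operated mice, which the labels leave unmarked.

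NF-κB is a family of dimeric transcription factors that wait in the cytoplasm, bound by inhibitors, until a signal frees them. In the canonical branch, TNF and similar signals activate a kinase complex that has the inhibitor IκBα destroyed, and dimers of RelA with the processed Nfkb1 product enter the nucleus. In the alternative branch, receptors such as that of the cytokine TWEAK stabilize a kinase that leads to processing of the Nfkb2 product, which pairs with RelB. Several of the genes that NF-κB turns on encode its own brakes, and in the kidney the pathway is known from tubule cells, endothelium, and infiltrating leukocytes during injury.

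Promoters are shown first for the genes among the 10 that hold matches to the κB consensus, the DNA word that these dimers bind, because these genes belong to the pathway's own feedback. Promoters of 8 of the 10 genes were found in RefSeq's table for build GRCm38.p6, each 300 bases long with 250 bases before the transcription start and 50 after it; Nfkb1 and Relb were not matched. The consensus, searched on both strands, was present in Nfkbia, Nfkb2, and Tnfaip3, and in 8.46% of all 32851 promoters in the table. Printed are the 150 bases before the start, 5′ to 3′ in the direction of the gene, with the matches in capitals.
Nfkbia: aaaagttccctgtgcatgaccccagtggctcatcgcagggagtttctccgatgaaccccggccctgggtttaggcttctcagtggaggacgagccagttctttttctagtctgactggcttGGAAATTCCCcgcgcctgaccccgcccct
Nfkb2: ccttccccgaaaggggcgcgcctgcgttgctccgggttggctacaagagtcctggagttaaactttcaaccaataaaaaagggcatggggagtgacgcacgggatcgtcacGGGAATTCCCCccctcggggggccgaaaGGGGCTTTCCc
Tnfaip3: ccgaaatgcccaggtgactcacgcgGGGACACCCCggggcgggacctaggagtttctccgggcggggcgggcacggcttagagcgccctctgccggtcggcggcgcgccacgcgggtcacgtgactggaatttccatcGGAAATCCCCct
These windows are chr12:55492648-55492797 on the minus strand for Nfkbia, chr19:46304587-46304736 on the plus strand for Nfkb2, and chr10:19015411-19015560 on the minus strand for Tnfaip3. Nfkbia held 1 match, which reads GGGAATTTCC on the opposite strand and begins 29 bases before the start. Nfkb2 held GGGAATTCCC with a second match shifted by 1 base on the opposite strand, and GGGGCTTTCC 11 bases before the start, while the table's 2 other start sites of Nfkb2 held matches as well and its other start site of Tnfaip3 held none, so that 5 of the 11 promoters of the 8 genes held a match. Tnfaip3 held GGGACACCCC 125 bases before the start and, on the opposite strand, GGGGATTTCC 12 bases before it. No match lay in the windows of Tnfrsf1a, Tnfrsf1b, Tnfrsf12a, Rela, and Birc3. A match is a description of the letters and was not tied to binding.

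Library totals ran from 172827 to 2341800 counts with a median of 757897. All 9 markers of kidney tubule were detected in every group, and no perirenal fat marker but 1 in the Veptp arm was high enough to be tested. Library names come with and without a low line (_), which the labels do not explain, and the joint share of Gm42418 and AY036118, ribosomal RNA-like transcripts, differed between the forms, from 0.325% to 0.778% with and 9.18% to 21.8% without a low line in the Veptp arm. Results are therefore also given within each form; the Pdgfb arm has 1 form only. Xist and Y-linked genes, which are not both expected in 1 mouse, both reached 10 counts in 24 libraries, among them all 4 PbKO UUO libraries. In the Veptp arm, libraries numbered 3, 4, 7, and 8 carry opposite genotypes in CL and UUO. The deviations of CL and UUO libraries from their group means nonetheless correlated within these numbers, at 0.322, 0.244, 0.108, and 0.231, and each of these CL libraries correlated best with the UUO library of its number. Libraries of different numbers averaged -0.0245. Deviations from a group mean cancel out within the group, so this average is tied to the same-number values and is not a separate baseline. For numbers 1 and 2, with VeKO labels on both kidneys, the correlations were 0.112 and 0.27, and for 5 and 6, with VeWT labels, 0.0266 and 0.0592. CL and UUO libraries of each number 1 to 8 also had the same one of Xist and Y-linked counts as the higher. Whether kidneys of 1 mouse carry opposite labels was not tested, and it bears on every VeKO and VeWT value below. Ptprb, the gene that encodes Veptp, was at 34.2 ± 6.39 CPM in VeKO CL and 54.0 ± 21.5 in VeWT CL (mean ± SD), and at 33.3 ± 18.9 in VeKO UUO and 51.2 ± 28.0 in VeWT UUO, which did not pass the test. Pdgfb was not lower in the CL libraries labelled PbKO, at 19.1 ± 3.98 CPM against 10.4 ± 6.73 in PbWT CL, and stood at 37.1 ± 3.09 against 52.6 ± 6.57 in UUO kidneys (adjusted p = 0.125), and its rise with obstruction was 1.26 smaller on the log2 scale in these libraries than in PbWT (SE 0.39, adjusted p = 0.0460); PbKO below means libraries labelled PbKO. Counts cover whole genes, so reads outside the deleted exons do not test a deletion. The paper's separate measurements gave lower Pdgfb expression in both kidneys of Pdgfb knockout mice and less VEPTP protein in Veptp knockout kidneys. How these relate to the labels of single libraries was not tested. CPM are counts scaled to a common library total after TMM scaling, are not corrected for gene length, and are compared only within a gene.

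These genes were higher in obstructed kidneys. All 10 were high enough to be tested in each arm, and for each of the 10 the UUO groups held the 6 highest of the 12 group means. In IgG mice all 10 rose, with a median log2 fold change of 1.81 where the median of all 9579 genes tested was 0.02, and 16.3% of all genes rose. In ABT mice all 10 rose as well (median 1.61), beside 12.6% of all genes, and so did all 10 in PbWT mice (median 1.70), beside 17.9%. In VeWT mice 9 of 10 rose (median 1.89), beside 10% of all genes, with Rela at 0.49 (SE 0.21, adjusted p = 0.0983). In VeKO mice 6 rose, Rela, Relb, Nfkb2, Tnfaip3, Birc3, and Tnfrsf12a, beside 4.47% of all genes, and in PbKO mice 6 rose, Relb, Nfkb2, Nfkbia, Birc3, Tnfrsf12a, and Tnfrsf1b, beside 3.94%. All 10 log2 fold changes were above 0 in each of the 6 groups of mice. UUO and CL libraries did not overlap for 4 of the 10 genes in IgG mice (4.28% of all genes were higher without overlap), 5 in ABT (4%), 5 in VeWT (3.26%), 2 in VeKO (0.688%), all 10 in PbWT (16.5%), and 5 in PbKO (6.12%).

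**Figure D1:**
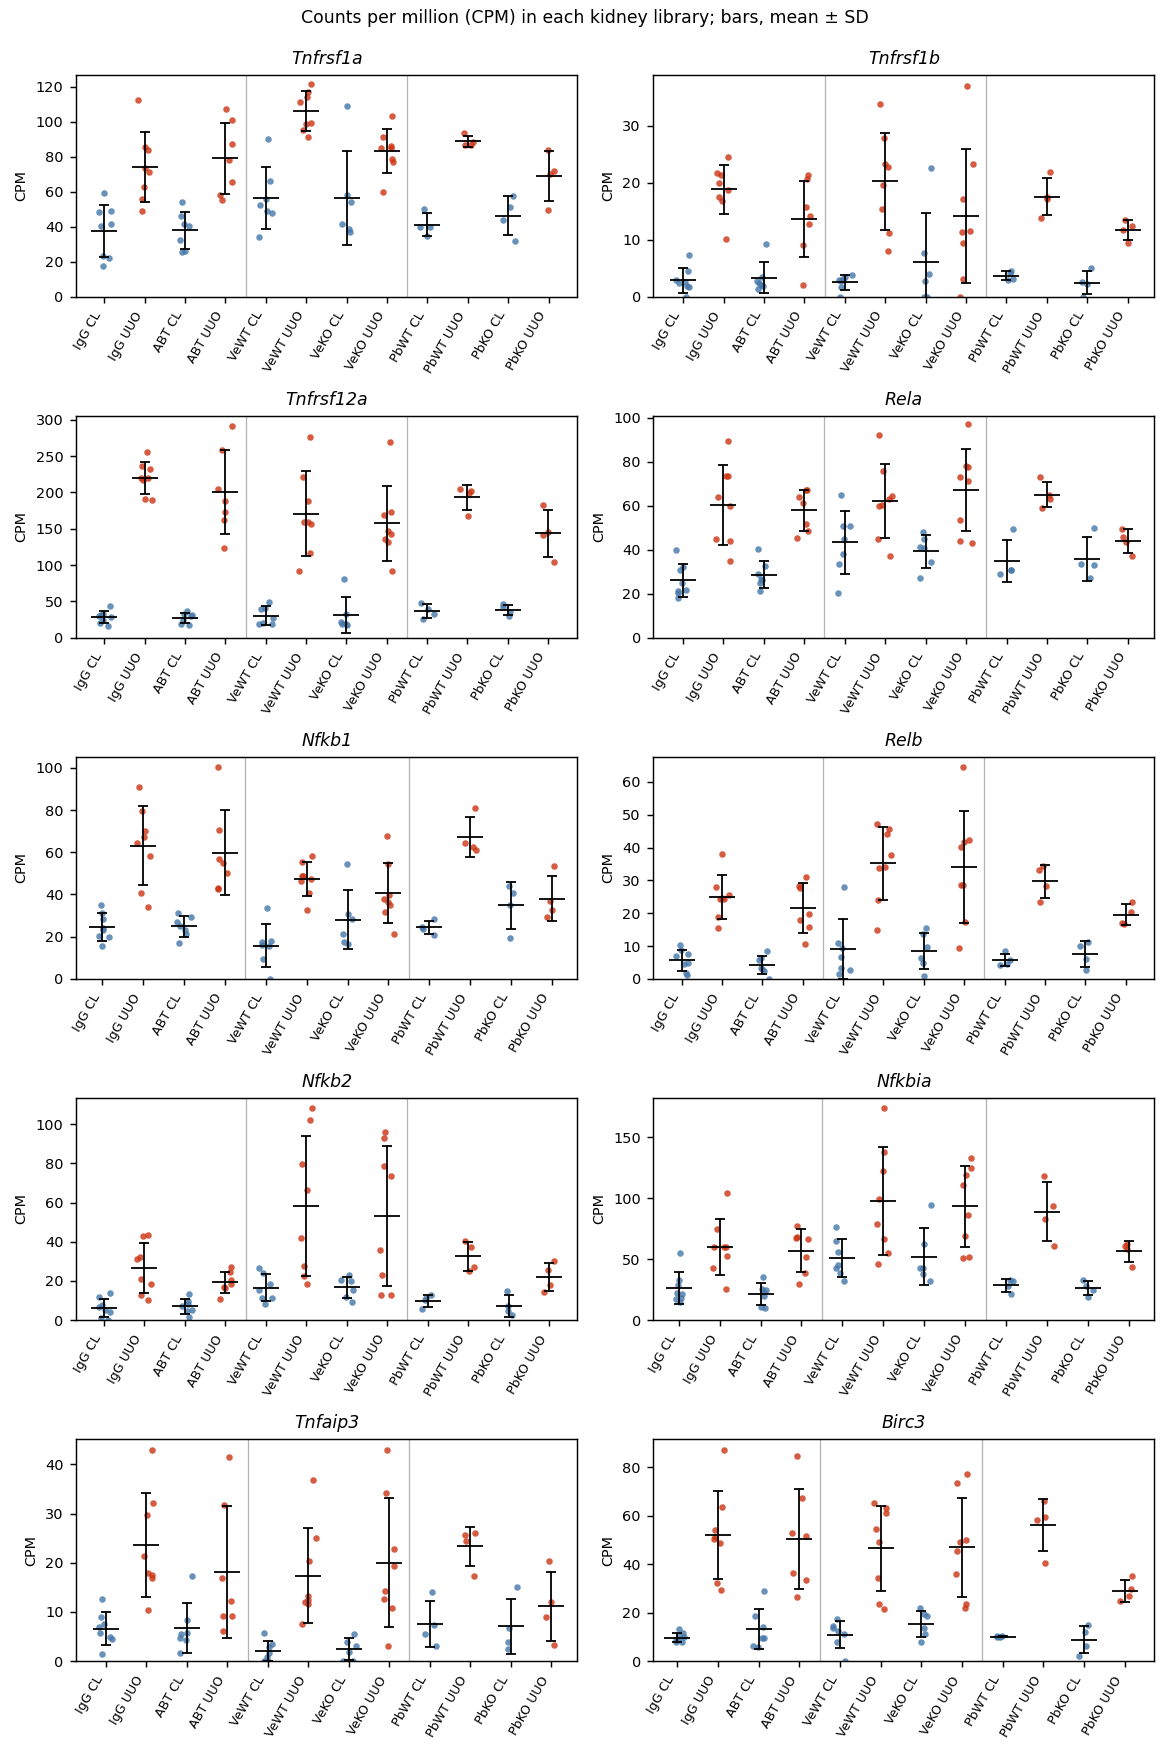
CPM of the 10 genes (vertical axes, from 0) in each of the 75 libraries, by group, with CL kidneys in blue and UUO kidneys in red, and bars for the mean ± SD of the group. Tnfrsf12a UUO libraries, all at or above 91.53 CPM, lie above every CL library, the highest of which is at 81.51 CPM.

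The gaps between neighbours in each gene's order of 12 means were mostly small: 8 of 110 exceeded the larger SD of the neighbouring groups. Of these, 3 lay between the lowest UUO and the highest CL mean, for Relb, Birc3, and Tnfrsf12a. The others were ABT UUO over PbKO UUO for Rela, PbWT UUO over IgG UUO and VeWT CL over PbWT CL for Nfkbia, IgG CL over VeKO CL for Tnfaip3, and VeWT UUO over PbWT UUO for Tnfrsf1a, each between groups of different arms, which were fitted separately.

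Within the forms of library name, 10 of the genes rose in IgG mice without and 9 with a low line, beside 10.7% and 13.7% of all genes. In ABT mice 9 rose in either form, beside 7.22% of all genes without and 11% with a low line, and in VeWT mice 8 of 9 tested rose without and 9 of 10 with a low line, beside 7.32% and 13.7%. In VeKO mice 0 of 9 tested rose without a low line, where 2 CL libraries stood against 4 UUO libraries, 2 of the 9 had an unadjusted p under 0.05, 7 were above 0, and 0 of all 7778 genes were called by edgeR; with a low line 10 of 10 rose, beside 10.5% of all genes. With the form as a covariate the count in VeKO was 10, beside 10.7% of all genes, and without the libraries numbered 3, 4, 7, and 8 it was 2, beside 0.852%. In VeWT mice these counts were 10, beside 16.6% of all genes, and 7, beside 4.68%. DESeq2 and edgeR with RLE size factors each called 8 in VeKO mice, beside 5.57% and 4.61% of all genes, with Tnfrsf1a and Tnfrsf1b added to the 6. When libraries with both Xist and Y-linked counts were left out, an alternative chosen after seeing the data, 8 genes rose in IgG (Nfkbia and Tnfaip3 did not pass), 10 in ABT, 9 in VeWT, and 7 in VeKO mice, beside 11.5%, 8.61%, 8.2%, and 4.06% of all genes; this could not be done for PbKO UUO.

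**Figure D2:**
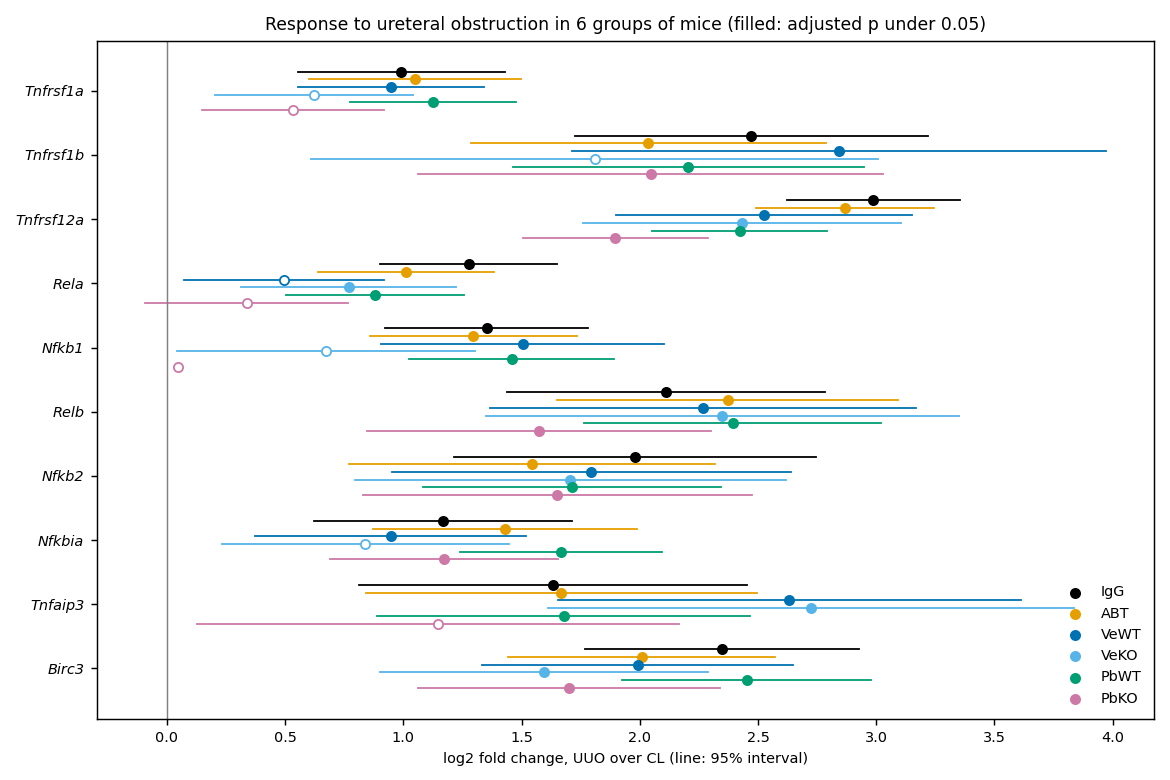
Log2 fold change of UUO over CL kidneys (horizontal axis) for the 10 genes in the 6 groups of mice, with the 95% interval as a line and filled points at an adjusted p under 0.05. All points lie to the right of 0; Nfkb1 in PbKO, at 0.05, is drawn without an interval.

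Leukocyte and fibroblast markers moved with obstruction as well. The summed level of 10 leukocyte markers ran from 105.3 to 205.2 CPM in IgG CL and from 360.3 to 874.7 CPM in IgG UUO, and the 6 that could be tested all rose; Ms4a1 was at 0 in all IgG CL and Cd79a in all IgG UUO libraries. Fibroblast and mural markers went from 96.47 to 209.4 CPM in IgG CL to between 405.5 and 618.8 CPM in IgG UUO, where all 5 rose. The 9 tubule markers summed to between 9019 and 12500 CPM in IgG CL and between 4298 and 6996 CPM in IgG UUO, with 8 lower. In whole kidneys a change in the number of cells of a type and in RNA per cell cannot be told apart, and the part of these markers in the results was not tested.

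Tnfrsf12a, on chr17:23675445-23677468 (minus strand, ENSMUSG00000023905.15), encodes the receptor of TWEAK and was the 1 gene among the 10 whose UUO libraries, over all arms, lay above every CL library. IgG CL libraries ran from a lowest of 16.8 through a median of 29.2 to a highest of 44.4 CPM, and IgG UUO libraries from 189.7 through 219.7 to 255 CPM. ABT libraries ran from 17.4 through 29.8 to 37.2 CPM in CL and from 124 through 189 to 291 CPM in UUO. Every UUO library was thus far above every CL library in both. The log2 fold change was 2.99 (SE 0.18, adjusted p = 5.62e-15) in IgG and 2.87 (SE 0.19, adjusted p = 5.55e-14) in ABT mice. VeWT CL and UUO were at 30.6 ± 12.4 and 171 ± 58.3 CPM (mean ± SD), and VeKO CL and UUO at 31.8 ± 24.9 and 157 ± 51.5 CPM, with log2 fold changes of 2.52 (SE 0.31, adjusted p = 1.26e-06) and 2.43 (SE 0.33, adjusted p = 3.07e-05). In VeKO CL 1 library stood at 81.5 CPM and the other 5 between 18.2 and 32.3 CPM. In the Pdgfb arm the 4 PbWT CL libraries held 25.6, 32.5, 39.9, and 47.5 CPM and the 4 PbWT UUO libraries 168, 199, 201, and 205 CPM. PbKO CL libraries held 29.5, 35.1, 41.9, and 46.2 CPM and PbKO UUO libraries 104, 142, 145, and 183 CPM. The rise was 2.42 in PbWT and 1.90 in PbKO on the log2 scale, without overlap in either. In the order of the 12 means, from IgG UUO at 220.05 to ABT CL at 27.4 CPM, the only neighbours that lay further apart than the larger of their SDs were PbKO UUO and PbKO CL.

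Tnfrsf1a, on chr6:125349362-125362484 (plus strand, ENSMUSG00000030341.17), encodes the TNF receptor with a death domain that most cells carry. It rose in IgG, ABT, VeWT, and PbWT mice. IgG CL libraries had a lowest of 17.4, a median of 40.8, and a highest of 59.2 CPM, against 48.9, 72.4, and 112 CPM in IgG UUO. The 2 groups overlapped, with 6 of 8 UUO libraries above all CL libraries, and the log2 fold change was 0.99 (SE 0.21, adjusted p = 0.000394). In ABT mice, at 38.1 ± 10.6 CPM in CL and 79.0 ± 20.4 in UUO (mean ± SD), it was 1.05 (SE 0.22, adjusted p = 0.000474), and in VeWT mice 0.95 (SE 0.19, adjusted p = 0.000629), with no overlap in either. UUO libraries split by form of name, with 73.43 to 112.4 CPM without and 48.94 to 71.37 CPM with a low line in IgG, and 77.83 to 107 against 55.41 to 65.8 CPM in ABT. IgG CL libraries split too, at 41.34 to 59.16 CPM without and 17.37 to 40.19 CPM with a low line. Within either form IgG UUO and CL libraries did not overlap. VeWT CL was at 56.5 ± 17.6 CPM, and VeWT UUO held the highest mean of the 12 groups, 106 ± 11.3 CPM. VeKO mice were at 56.3 ± 27.0 CPM in CL and 83.3 ± 12.5 in UUO (0.62 (SE 0.20, adjusted p = 0.0566)), and without the CL library at 108.7 CPM, VeKO CL replicate 2, this difference passed the test, as it did without VeWT CL replicate 3 or VeKO UUO replicate 4 (adjusted p down to 0.00186) and by DESeq2 (adjusted p = 0.00502). PbWT CL held 34.5, 39.9, 39.9, and 50.3 CPM and PbWT UUO 86.7, 86.8, 88.1, and 93.5 CPM, and PbKO CL 31.8, 43.9, 51.4, and 57.7 and PbKO UUO 49.6, 70.2, 71.8, and 83.7 CPM. The PbKO groups overlapped, and UUO over CL came to 0.53 (SE 0.19, adjusted p = 0.0913) on the log2 scale, where the adjusted p was 0.0352 without PbKO UUO replicate 3; in PbWT it was 1.12 (SE 0.17, adjusted p = 8.92e-06).

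Tnfrsf1b, on chr4:145213463-145246870 (minus strand, ENSMUSG00000028599.10), encodes the TNF receptor without a death domain, best known from leukocytes and endothelium. It was barely detected in CL kidneys, where counts per library ran from 0 to 8. IgG CL libraries had a lowest of 0, a median of 2.54, and a highest of 7.40 CPM, and IgG UUO libraries 10.1, 19.3, and 24.5 CPM, so that all 8 UUO libraries were above all CL libraries. The log2 fold change was 2.47 (SE 0.37, adjusted p = 1.31e-06) in IgG, 2.04 (SE 0.37, adjusted p = 6.05e-05) in ABT, and 2.84 (SE 0.56, adjusted p = 0.000343) in VeWT mice. ABT CL and UUO stood at 3.33 ± 2.71 and 13.7 ± 6.71 CPM and VeWT CL and UUO at 2.53 ± 1.31 and 20.3 ± 8.56 CPM (mean ± SD). In VeKO UUO it ran from 0 through 11.5 to 37.0 CPM, which overlapped with VeKO CL, at 0 to 22.64 CPM, and gave 1.81 (SE 0.59, adjusted p = 0.0519). This difference passed without VeKO CL replicate 2 or VeKO UUO replicates 1, 3, or 4 (adjusted p down to 0.00575), and under 11 of the 12 other alternatives that could test it, among them DESeq2 (adjusted p = 0.0274). PbWT CL held 2.96, 3.15, 4.19, and 4.45 CPM and PbWT UUO 13.8, 17.1, 17.5, and 21.8 CPM. PbKO CL held 0, 2.27, 2.51, and 4.99 CPM and PbKO UUO 9.40, 11.7, 12.3, and 13.4 CPM, a rise of 2.05 on the log2 scale (SE 0.48, adjusted p = 0.00984) without overlap.

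Rela, on chr19:5637483-5648130 (plus strand, ENSMUSG00000024927.8), encodes the subunit that activates transcription in the canonical dimer, and it rose in IgG, ABT, VeKO, and PbWT mice. IgG CL libraries lay between 18.1 and 40.0 CPM with a median of 23.4, and IgG UUO libraries between 34.8 and 89.4 CPM with a median of 61.9. Of the 8 UUO libraries 7 were above all CL libraries, and the log2 fold change was 1.28 (SE 0.18, adjusted p = 1.19e-06). ABT mice, at 28.8 ± 6.18 CPM in CL and 58.0 ± 9.16 in UUO (mean ± SD), gave 1.01 (SE 0.18, adjusted p = 7.21e-05) without overlap. In the Veptp arm the levels were 43.4 ± 14.4 CPM in VeWT CL, 62.2 ± 17.0 in VeWT UUO, 39.4 ± 7.57 in VeKO CL, and 67.2 ± 18.8 in VeKO UUO, where the groups of each genotype overlapped. VeKO gave 0.77 (SE 0.22, adjusted p = 0.0277), a call that was lost without any 1 of 7 VeKO libraries (adjusted p up to 0.0768). For VeWT, which missed the threshold, the adjusted p was 0.0453 without VeWT CL replicate 4. With the form of name as a covariate all 10 genes were called in VeWT mice, Rela among them. VeWT CL libraries split by form, with 44.85 to 65.1 CPM with and 20.27 to 38.24 CPM without a low line. PbWT CL held 28.9, 30.8, 31.0, and 49.3 CPM and PbWT UUO 59.2, 63.3, 64.8, and 73.1 CPM. PbKO CL held 27.3, 32.9, 33.4, and 50.2 CPM and PbKO UUO 37.0, 43.5, 46.0, and 49.6 CPM, so that PbKO UUO libraries lay within the range of PbKO CL, at 0.34 (SE 0.21, adjusted p = 0.393); PbWT gave 0.88 (SE 0.18, adjusted p = 0.000422).

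Nfkb1, on chr3:135584655-135691547 (minus strand, ENSMUSG00000028163.17), encodes the precursor of the DNA-binding partner of RelA. IgG CL libraries ran from 15.4 through 23.6 to 34.9 CPM and IgG UUO libraries from 34.1 through 65.8 to 90.8 CPM (lowest, median, and highest). In this comparison 1 UUO library lay inside the CL range, and the log2 fold change was 1.35 (SE 0.21, adjusted p = 4.26e-06). ABT mice, at 24.9 ± 4.89 CPM in CL and 59.8 ± 20.2 in UUO (mean ± SD), gave 1.30 (SE 0.21, adjusted p = 2.19e-05) without overlap, with UUO libraries at 56.66 to 100.2 CPM with and 42.62 to 55.13 CPM without a low line, and VeWT mice 1.50 (SE 0.29, adjusted p = 0.000422). The VeWT groups stood at 15.8 ± 10.2 and 47.3 ± 8.02 CPM and the VeKO groups at 28.1 ± 14.1 and 40.5 ± 14.2 CPM, with the VeKO difference at 0.67 (SE 0.31, adjusted p = 0.205). PbWT CL held 21.0, 23.6, 24.5, and 28.3 CPM and PbWT UUO 60.9, 62.4, 64.3, and 81.1 CPM, clear of each other, at 1.46 (SE 0.21, adjusted p = 4.41e-06). In PbKO mice the groups overlapped, with 19.3, 35.1, 40.9, and 43.9 CPM in CL and 29.1, 32.8, 36.8, and 53.6 CPM in UUO and a log2 fold change of 0.05 (adjusted p = 0.945).

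Relb, on chr7:19606217-19629438 (minus strand, ENSMUSG00000002983.17), encodes the subunit of the alternative branch and was low in CL kidneys. IgG CL libraries had 1.06, 5.91, and 10.4 CPM as lowest, median, and highest, and IgG UUO libraries 15.6, 24.6, and 37.9 CPM. All UUO libraries of IgG and of ABT mice were above the CL libraries, at 2.11 (SE 0.33, adjusted p = 4.02e-06) and 2.37 (SE 0.36, adjusted p = 4.04e-06). ABT CL and UUO were at 4.22 ± 2.82 and 21.6 ± 7.55 CPM (mean ± SD). VeWT CL and UUO were at 8.97 ± 9.14 and 35.2 ± 11.2 CPM and VeKO CL and UUO at 8.45 ± 5.51 and 34.1 ± 17.1 CPM. VeWT mice gave 2.27 (SE 0.44, adjusted p = 0.00038) and VeKO mice 2.35 (SE 0.49, adjusted p = 0.0023), both with overlap. UUO libraries split by the form of their name, with 37.8 to 47.3 CPM with and 14.97 to 34 CPM without a low line in VeWT, and 40.21 to 64.44 against 9.468 to 28.67 CPM in VeKO. In VeKO mice the log2 fold change was 3.16 within names with a low line and 0.37 (adjusted p = 0.957) within those without. In the Pdgfb arm PbWT CL held 4.20, 4.45, 5.91, and 8.38 CPM and PbWT UUO 23.3, 28.2, 33.0, and 34.3 CPM (2.39 (SE 0.30, adjusted p = 7.85e-07)). PbKO CL held 2.57, 5.99, 10.0, and 11.4 CPM and PbKO UUO 16.7, 17.2, 20.5, and 23.6 CPM (1.57 (SE 0.35, adjusted p = 0.0077)), and neither pair overlapped.

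Nfkb2, on chr19:46304320-46312385 (plus strand, ENSMUSG00000025225.15), encodes the precursor that pairs with RelB after processing, and its promoter holds the κB matches shown above. Its exons overlap those of Psd on the other strand, whose counts reached 17 in a library against 268 for Nfkb2, and since strand use in counting is not given in the sources used here their reads cannot be told apart there. IgG CL libraries lay between 0 and 13.8 CPM (median 5.77) and IgG UUO libraries between 10.1 and 43.3 CPM (median 26.1), with 6 of 8 above all CL libraries. The log2 fold change was 1.98 (SE 0.38, adjusted p = 7.68e-05) in IgG and 1.54 (SE 0.38, adjusted p = 0.0024) in ABT mice, where CL and UUO kidneys stood at 7.10 ± 3.83 and 19.2 ± 5.47 CPM (mean ± SD). UUO libraries split by the form of their name in both arms that hold both forms, in opposite directions. IgG UUO libraries held 31.29 to 43.34 CPM without and 10.11 to 20.97 CPM with a low line, and ABT UUO libraries 18.38 to 27.19 and 10.61 to 16.81 CPM, and within names with a low line the ABT call was lost (0.83, adjusted p = 0.236). UUO libraries of the Veptp arm lay the other way, with 66.4 to 108.1 CPM with and 18.6 to 41.7 CPM without a low line in VeWT, and 73.45 to 96.25 against 12.6 to 35.8 CPM in VeKO. CL libraries held 8.445 to 26.35 CPM in VeWT and 9.057 to 22.96 CPM in VeKO. The rise was 1.79 (SE 0.41, adjusted p = 0.00219) in VeWT and 1.71 (SE 0.45, adjusted p = 0.0137) in VeKO mice. PbWT CL held 5.56, 10.3, 11.2, and 12.6 CPM and PbWT UUO 24.9, 27.3, 37.2, and 40.5 CPM (1.72 (SE 0.31, adjusted p = 7.16e-05)). PbKO CL held 2.57, 4.54, 6.98, and 15.1 CPM and PbKO UUO 14.6, 17.9, 25.6, and 30.1 CPM, where 3 of 4 UUO libraries were above all CL libraries (1.65 (SE 0.40, adjusted p = 0.0133)), and the adjusted p was 0.057 without PbKO CL replicate 1.

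Nfkbia, on chr12:55489410-55492647 (minus strand, ENSMUSG00000021025.8), encodes IκBα, the inhibitor that holds RelA dimers in the cytoplasm and is itself switched on by them. IgG CL libraries had a lowest of 14.9, a median of 21.7, and a highest of 55.1 CPM, and IgG UUO libraries 25.8, 59.7, and 104 CPM, with 5 of 8 above all CL libraries. Within each form of name they did not overlap. Without a low line, CL held 22.2 to 55.13 and UUO 59.59 to 104 CPM, and with one, 14.92 to 21.23 and 25.84 to 60.03 CPM. The log2 fold changes were 1.17 (SE 0.27, adjusted p = 0.000758) in IgG, 1.43 (SE 0.27, adjusted p = 0.000152) in ABT, 0.95 (SE 0.28, adjusted p = 0.0161) in VeWT, and 0.84 (SE 0.30, adjusted p = 0.0795) in VeKO mice. The VeWT call was lost without VeWT UUO replicate 5 (adjusted p = 0.0518), and the VeKO difference passed without VeKO CL replicate 5, VeKO UUO replicate 3, or VeKO UUO replicate 4 (adjusted p down to 0.0269). ABT CL and UUO stood at 21.2 ± 8.81 and 57.0 ± 17.6 CPM (mean ± SD). VeWT CL and UUO stood at 50.8 ± 15.7 and 97.4 ± 44.5 CPM and VeKO CL and UUO at 52.0 ± 23.3 and 93.1 ± 33.3 CPM. As for Relb and Nfkb2, the UUO libraries of the Veptp arm split by form of name, with 99.49 to 173.9 CPM with and 46.08 to 78.81 CPM without a low line in VeWT, and 111.1 to 133.2 against 50.5 to 86 CPM in VeKO. PbWT CL held 21.0, 27.8, 32.1, and 32.5 CPM and PbWT UUO 60.4, 82.8, 93.5, and 118 CPM (1.67 (SE 0.21, adjusted p = 5.2e-07)). PbKO CL held 19.3, 25.0, 27.9, and 32.6 CPM and PbKO UUO 43.5, 58.5, 60.5, and 62.4 CPM (1.17 (SE 0.23, adjusted p = 0.00291)), again without overlap.

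Tnfaip3, on chr10:19000910-19015657 (minus strand, ENSMUSG00000019850.11), encodes a ubiquitin-editing enzyme that ends TNF receptor signalling, and its promoter too holds κB matches. Counts were low in CL kidneys, at 0 to 12 per library. IgG CL libraries lay between 1.44 and 12.7 CPM with a median of 6.34, and IgG UUO libraries between 10.4 and 42.8 with a median of 19.7. Its log2 fold change was 1.63 (SE 0.40, adjusted p = 0.00165) in IgG and 1.67 (SE 0.41, adjusted p = 0.00214) in ABT mice, where just 2 of 7 UUO libraries were above all CL libraries and the call was lost within names without a low line (1.33, adjusted p = 0.0818). ABT CL and UUO were at 6.79 ± 5.07 and 18.1 ± 13.4 CPM (mean ± SD), VeWT CL and UUO at 2.06 ± 2.09 and 17.4 ± 9.61, and VeKO CL and UUO at 2.41 ± 2.20 and 20.0 ± 13.1 CPM. In VeWT mice it rose by 2.63 (SE 0.48, adjusted p = 0.000146) on the log2 scale without overlap and in VeKO mice by 2.72 (SE 0.55, adjusted p = 0.00134). PbWT CL held 3.15, 5.56, 7.39, and 14.0 CPM and PbWT UUO 17.4, 24.4, 25.6, and 26.0 CPM (1.68 (SE 0.38, adjusted p = 0.00106)). PbKO CL held 2.57, 3.99, 6.82, and 15.1 CPM and PbKO UUO 3.35, 8.97, 12.0, and 20.3 CPM, which overlapped (1.15 (SE 0.49, adjusted p = 0.187)).

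Birc3, on chr9:7848699-7873186 (minus strand, ENSMUSG00000032000.17), encodes a ubiquitin ligase that works with TRAF adaptors at TNF receptors and restrains cell death. It lies beside its close relative Birc2, and how reads shared by both were counted is not given in the sources used here. IgG CL libraries were tightly grouped, with 7.72, 9.41, and 13.1 CPM as lowest, median, and highest, and IgG UUO libraries had 29.4, 51.0, and 87.4 CPM. These groups did not overlap, at 2.35 (SE 0.29, adjusted p = 6.9e-08). ABT mice gave 2.01 (SE 0.28, adjusted p = 1.3e-06) with overlap, and VeWT and VeKO mice 1.99 (SE 0.32, adjusted p = 4.75e-05) and 1.60 (SE 0.34, adjusted p = 0.00293) without. Their means were 13.2 ± 8.28 and 50.5 ± 20.5 CPM in ABT CL and UUO, 10.9 ± 5.62 and 46.6 ± 17.7 in VeWT, and 15.4 ± 5.49 and 47.1 ± 20.4 in VeKO (± SD). Here too UUO libraries split by form of name, with 54.44 to 65.15 CPM with and 21.63 to 49.15 CPM without a low line in VeWT, and 49.2 to 77.12 against 22.09 to 45.69 CPM in VeKO, and with 53 to 84.89 against 26.38 to 51.58 CPM in ABT. PbWT CL held 9.78, 10.0, 10.3, and 10.5 CPM and PbWT UUO 40.6, 58.5, 59.7, and 66.1 CPM (2.45 (SE 0.26, adjusted p = 4e-08)). PbKO CL held 2.27, 6.42, 12.0, and 15.1 CPM and PbKO UUO 24.7, 26.8, 29.9, and 35.1 CPM (1.70 (SE 0.31, adjusted p = 0.00118)), both pairs clear of each other.

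ABTAA was compared with the control IgG to see whether TIE2 activation moved these genes. No gene passed the test. In UUO kidneys 0 of the 10 genes were called, and 0% of all 9579 genes were; 3 log2 fold changes were above 0 and 7 below, and 0 of the 10 had an unadjusted p under 0.05 (3.55% of all genes had). DESeq2 also called 0 of 10, and edgeR's exact test 0 of the 9 it tested. The values ran from Nfkb2 at -0.36 (95% interval -1.03 to 0.31) and Tnfrsf1b at -0.36 (-0.97 to 0.24) to Tnfrsf1a at 0.06 (-0.37 to 0.49). Tnfrsf12a, the most precise, was at -0.14 (-0.46 to 0.19). In CL kidneys 0 of 10 were called (0% of all genes), with values from Relb at -0.49 (-1.35 to 0.36) to Birc3 at 0.35 (-0.30 to 1.01) and 0 of 10 at an unadjusted p under 0.05 (3.16% of all genes). The difference between the responses to UUO of ABT and IgG mice gave 0 calls (0% of all genes) and 0 unadjusted p under 0.05 (3.29%), and the intervals of 9 genes reached from -1.58 to 1.25; Tnfaip3, at 0.03, has none. These intervals do not show that the antibody left the genes as they were.

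**Figure D3:**
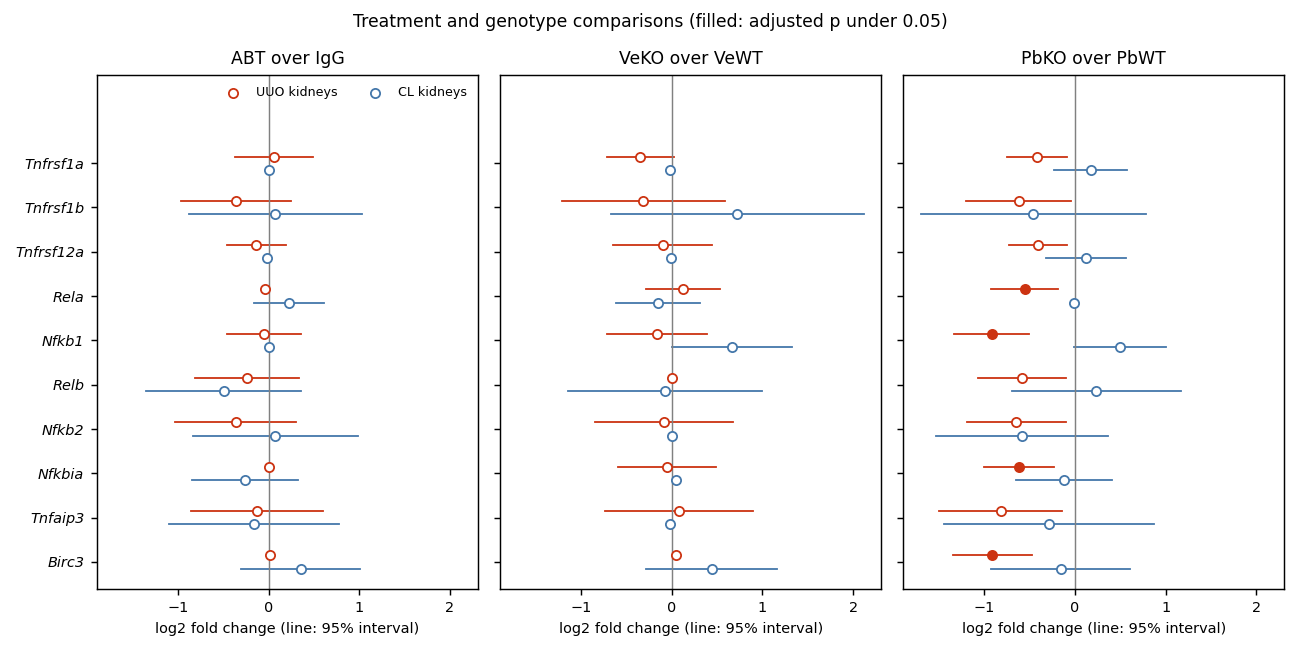
Log2 fold change (horizontal axes) of ABT over IgG, VeKO over VeWT, and PbKO over PbWT for the 10 genes, in UUO (red) and CL (blue) kidneys, with 95% intervals as lines and filled points at an adjusted p under 0.05. Filled points appear for PbKO over PbWT in UUO kidneys, for Nfkb1, Birc3, Nfkbia, and Rela; values within 0.05 of 0 carry no interval.

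VeKO and VeWT were compared as a genetic way of activating TIE2, and again 0 of the 10 genes were called in UUO kidneys (0% of all 11916 genes), in CL kidneys (0%), or for the difference of the responses (0%; 0 of 10 and 2.72% of all genes at an unadjusted p under 0.05). At an unadjusted p under 0.05 stood 0 of 10 in UUO and 1 of 10 in CL, against 3.58% and 1.92% of all genes. DESeq2 called 0 of the 10 in either kidney, and within each form of name the count was 0 too. The furthest from 0 in UUO was Tnfrsf1a at -0.35 (95% interval -0.72 to 0.03), and in CL Nfkb1 at 0.67 (0.01 to 1.32, unadjusted p = 0.0475) and Tnfrsf1b at 0.72 (-0.67 to 2.12). Nfkb1 also had the lowest p for the difference of responses, at -0.83 (-1.69 to 0.03). The form of the library name went with these values: VeKO CL without a low line held Nfkb1 at 30.8 and 54.3 CPM, and with a low line between 16.6 and 28.5 CPM, while VeWT CL held 0 to 33.8 CPM without and 9.51 to 17.9 CPM with one. VeKO UUO held Tnfrsf1b at 0 to 11.4 CPM without and 11.5 to 37.0 CPM with a low line. VeKO UUO libraries without a low line held as few as 3 counts of Nfkb1 and 12 of Tnfrsf1a. In the response of VeKO mice to UUO, Nfkb1 was at -0.32 without and 1.20 with a low line on the log2 scale, and Tnfrsf1a at -0.03 and 1.01.

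**Figure D4:**
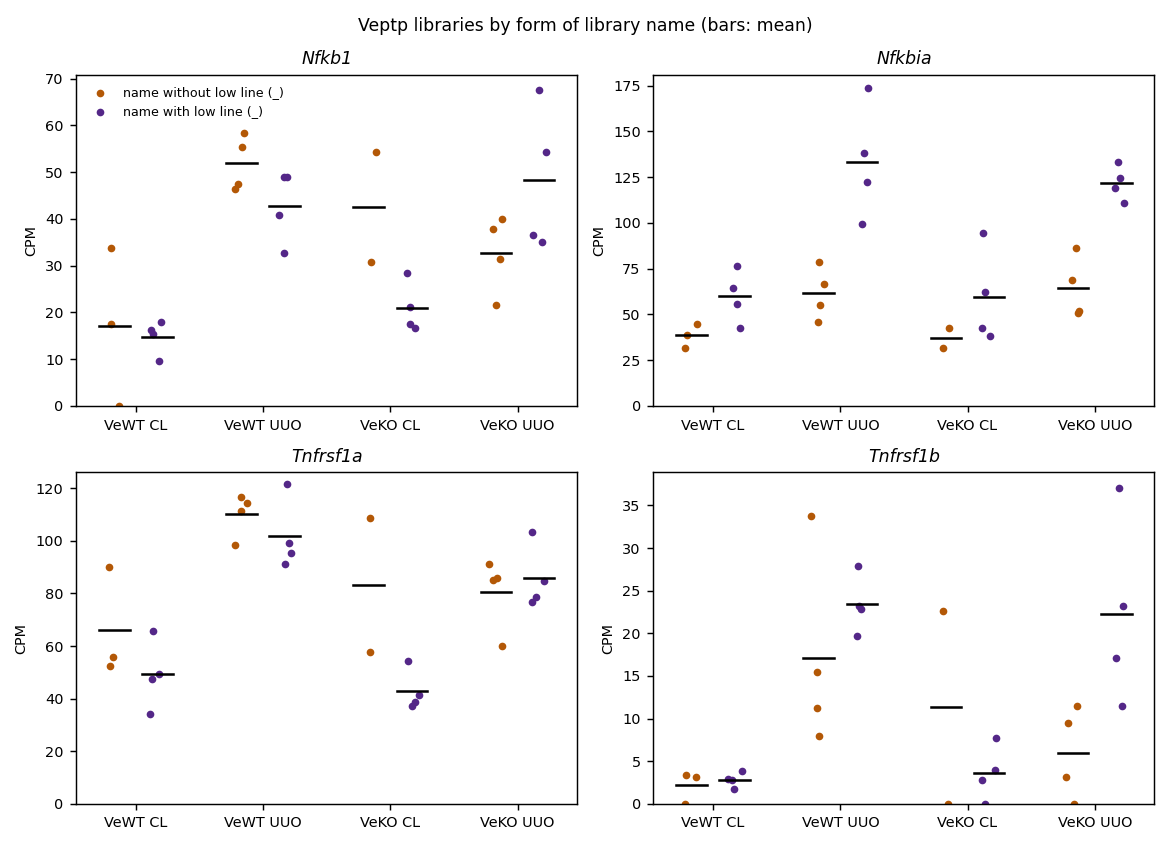
CPM (vertical axes, from 0) of the 4 genes that did not pass the test for UUO in VeKO mice, in single libraries of the Veptp arm, split by library names without (orange) and with (purple) a low line, with bars for means. With a low line, the 4 VeKO UUO libraries lie above the 4 VeKO CL libraries for each of the 4 genes; without one, VeKO UUO and CL overlap for Nfkb1, Tnfrsf1a, and Tnfrsf1b.

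PbKO was compared with PbWT to see whether loss of Pdgfb went with these genes. In UUO kidneys all 10 were lower in PbKO, with a median log2 fold change of -0.62 where that of all 10923 genes was -0.02. The test called 4 lower, Nfkb1 at -0.92 (SE 0.20, adjusted p = 0.0019), Birc3 at -0.91 (SE 0.21, adjusted p = 0.00335), Nfkbia at -0.62 (SE 0.19, adjusted p = 0.022), and Rela at -0.55 (SE 0.18, adjusted p = 0.0308), beside 6.58% of all genes lower and 12% higher. All 10 had an unadjusted p under 0.05 and were lower, as were 14% of all genes. The other 6 ran from Tnfrsf12a at -0.41 (SE 0.16, adjusted p = 0.071) to Tnfaip3 at -0.82 (SE 0.33, adjusted p = 0.0869). For Rela, Nfkb1, Birc3, Tnfrsf1a, and Tnfrsf1b the 4 PbKO UUO libraries all lay below the 4 PbWT UUO libraries, as the values above show, and 9.15% of all genes were lower without overlap. The call for Nfkbia was lost without PbWT UUO replicate 1 or replicate 2 (adjusted p up to 0.124), and that for Rela without either of these, PbWT UUO replicate 4, or PbKO UUO replicates 2 or 4 (adjusted p up to 0.123), so that 2 calls, for Nfkb1 and Birc3, did not hang on a single library. Of the other 6, Tnfaip3 passed without PbKO UUO replicate 4, at -1.27 (adjusted p = 0.0242), Tnfrsf12a without PbWT CL replicate 1 or PbKO UUO replicate 2 (adjusted p down to 0.0352), and Tnfrsf1a without PbKO UUO replicate 1 (adjusted p = 0.0450). The exact test and a fit of the compared groups alone each called 6 lower, beside 8.53% and 7.91% of all genes. Without TMM scaling, which moves the median of all genes to -0.29, all 10 were called lower, beside 22.9% of all genes, and in 1 fit over all 12 groups 0 were, beside 0.5%.

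In CL kidneys 0 of the 10 genes were called between PbKO and PbWT (0% of all genes; 0 of 10 and 3.46% of all genes at an unadjusted p under 0.05, and 0 of 10 by DESeq2), with Nfkb1 at 0.49 (SE 0.25, 95% interval -0.01 to 1.00) and Nfkb2 at -0.58 (SE 0.46, 95% interval -1.53 to 0.36) furthest from 0. The response to UUO itself was smaller in PbKO for Nfkb1, with a log2 difference of -1.41 (SE 0.32, adjusted p = 0.00565), and for no other of the 10, beside 1.9% of all genes called below 0; 2 of the 10, Nfkb1 and Tnfrsf1a, had an unadjusted p under 0.05, as did 21.7% of all genes. In 1 fit over all 12 groups the call for Nfkb1 was lost (adjusted p = 0.187). This difference uses the PbWT CL group, in which some kidneys came from sham-operated mice, and their part in it was not tested. The differences of the other 9 were below 0 too, from Nfkb2 at -0.06 (95% interval -1.30 to 1.17) to Relb at -0.82 (-1.88 to 0.24). The PbKO and PbWT responses share no libraries, but the comparison within UUO and the difference of responses share the UUO libraries.

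Cell markers moved with this comparison. The 10 leukocyte markers summed to between 437.6 and 648.7 CPM in PbWT UUO and between 277.9 and 361 CPM in PbKO UUO, with 4 of 6 tested lower and Cd3e at 0 in all PbKO UUO libraries. Fibroblast and mural markers summed to 411.5 to 564 CPM in PbWT UUO and 160.7 to 358.2 CPM in PbKO UUO (4 of 5 lower), endothelial markers to 160.3 to 217.4 against 100 to 162.3 CPM (2 of 6 lower), and tubule markers to 3352 to 4155 against 5498 to 8845 CPM (7 of 9 higher). Podocyte markers, at 156.5 to 200.9 against 139 to 190.8 CPM, gave 0 calls of 4. The part of these markers in the result was not tested. PbWT UUO libraries held from 888357 to 2049326 counts in all and PbKO UUO libraries from 337545 to 1249343, the shallowest of which held 16 counts of Nfkb1 and 8 of Birc3.

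Other genes of the pathway were described by lists with no test of the list. Of 18 TNF family ligands, 1 was high enough to be tested in the ABTAA arm and 3 in each other arm. Of those tested 0 were called in IgG, ABT, VeKO, and PbKO mice by edgeR (1 in PbKO and 0 in the others at an unadjusted p under 0.05), and 1 of 3 rose in VeWT and 1 of 3 in PbWT mice, beside 10% and 17.9% of all genes. Tnf itself did not exceed 7 counts in any library, and was not tested. Tnfsf10, which encodes the death ligand TRAIL, was at -0.19 in IgG mice (SE 0.23, adjusted p = 0.5679). Tnfsf12, which encodes TWEAK, the ligand of the Tnfrsf12a product, and which was picked after its values were seen, rose in VeWT mice (0.97, SE 0.31, adjusted p = 0.0241) and was at 0.58 in PbWT (adjusted p = 0.140), 0.71 in PbKO (adjusted p = 0.293), and 0.16 in VeKO mice (adjusted p = 0.858). The ligand that rose in PbWT mice was Tnfsf13, which encodes APRIL, at 0.87 (SE 0.28, adjusted p = 0.0156), and it was at 0.77 in PbKO (adjusted p = 0.254), 0.98 in VeWT (adjusted p = 0.125), and 0.56 in VeKO mice (adjusted p = 0.587).

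Among 25 other TNF receptor family members 4 could be tested in IgG mice, of which 2 rose and 1 fell, where 16.3% of all genes rose and 18.2% fell. In the other groups 2 of 4 rose in ABT (12.6% of all genes did), 1 of 6 in VeWT (10%), and 1 of 6 in VeKO mice (4.47%). In PbWT mice 1 of 4 rose (17.9% of all genes) and 1 fell (19.4%), and in PbKO mice 1 of 4 rose (3.94%). Cd40, a costimulatory receptor of B cells and myeloid cells, rose by 2.84 (SE 0.42, adjusted p = 7.68e-07) on the log2 scale and Ltbr, the lymphotoxin β receptor, by 0.46 (SE 0.16, adjusted p = 0.0238), while Tnfrsf21 fell by 0.43 (SE 0.16, adjusted p = 0.0372). The death receptor Fas was at 0.17 (adjusted p = 0.646). Of 26 adaptor and kinase genes, 20 were tested, and 3 rose and 1 fell in IgG mice at a median of 0.33, where 16.3% of all genes rose and their median was 0.02, so that the share that rose was near that of all genes. Risers were Birc2, the relative of Birc3, at 1.08 (SE 0.23, adjusted p = 0.000382), and the adaptors Traf2 at 0.82 (SE 0.21, adjusted p = 0.00225) and Traf3 at 0.81 (SE 0.30, adjusted p = 0.0316). Chuk, a catalytic subunit of the IκB kinase, fell by 0.40 (SE 0.14, adjusted p = 0.0263). Without TMM scaling 10 of the list rose in IgG mice and 0 fell, where 26% of all genes rose and their median was 0.23. In PbWT mice 9 of 24 tested rose and 1 fell, beside 17.9% of all genes that rose and 19.4% that fell, and in PbKO 0 of 24 were called by edgeR (3 at an unadjusted p under 0.05), beside 3.94% of all genes that rose. Directly between PbKO and PbWT in UUO kidneys 2 of the 24 were lower, beside 6.58% of all genes, the kinase adaptors Tab2 at -0.64 (adjusted p = 0.0261) and Tab3 at -1.01 (adjusted p = 0.0419).

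Of 20 other subunits and regulators 14 were tested in IgG mice, and 4 rose and 1 fell, at a median of 0.06 against 0.02 for all genes, of which 16.3% rose. Nfkbiz, a nuclear IκB protein, rose by 2.51 (SE 0.27, adjusted p = 9.54e-09), Nfkbie, a cytoplasmic inhibitor, by 2.08 (SE 0.38, adjusted p = 3.29e-05), and Pdlim2 by 0.76 (SE 0.24, adjusted p = 0.0109), while Tax1bp1, a partner of the Tnfaip3 enzyme, fell by 0.33 (SE 0.11, adjusted p = 0.0186). Of 15 tested in PbKO against PbWT UUO kidneys, Nfkbiz at -0.93 (adjusted p = 0.00267) and Nfkbie at -1.02 (adjusted p = 0.0317) were lower and Commd1 at 0.47 (adjusted p = 0.0215) was higher, beside 6.58% of all genes lower and 12% higher.

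Of the 33 known NF-κB target genes most of those tested rose with obstruction. In IgG mice 14 of 19 tested rose and 1 fell, at a median of 1.76 against 0.02 for all genes; 13 of 19 rose in ABT, 15 of 23 in VeWT, 13 of 23 in VeKO, 16 of 22 in PbWT, and 15 of 22 in PbKO mice. Of all genes, in the same order from IgG to PbKO, 16.3%, 12.6%, 10%, 4.47%, 17.9%, and 3.94% rose. The chemokine gene Cxcl1 rose by 5.71 (SE 0.45), the complement gene C3 by 5.44 (SE 0.36), the adhesion molecule gene Vcam1 by 5.16 (SE 0.29), and Lcn2, a marker of tubular injury, by 5.09 (SE 0.29) on the log2 scale in IgG mice. The target that fell was Sod2, the mitochondrial superoxide dismutase, at -1.29 (SE 0.22, adjusted p = 1.89e-05). Between PbKO and PbWT UUO kidneys 6 of 22 were lower and 1 higher, beside 6.58% and 12% of all genes, at a median of -0.47 over the list and -0.02 over all genes; C3 was at -1.11 (adjusted p = 0.00165), Icam1, a leukocyte adhesion molecule, at -0.80 (adjusted p = 0.00247), and Cxcl1 at -0.92 (adjusted p = 0.00693), and Sod2 was higher at 1.05 (adjusted p = 1.42e-05). Sod2 was also the 1 target whose response to UUO differed, by 1.06 (SE 0.20, adjusted p = 0.00152). Of the 58 genes of the 5 lists tested in the ABTAA arm 0 were called between ABT and IgG in UUO kidneys. An unadjusted p under 0.05 was seen for 2 of them, as for 3.55% of all genes. Of the 73 in the Veptp arm 0 were called between VeKO and VeWT in UUO kidneys, where 4 had one, as had 3.58% of all genes.

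The genes most like each member were found by correlation of log2(CPM + 1) over the 75 libraries, centred within arm and form of name, among 10340 genes, as a description. The points share the contrast between UUO and CL kidneys, and they share library depth. Tnfrsf12a was most like Havcr1, which encodes the tubular injury marker KIM, at r = 0.969, and then Fgg and Fga, fibrinogen chains, at 0.956 and 0.955. Tnfrsf1a was most like the collagen genes Col1a1, Col3a1, and Col1a2, at 0.918, 0.903, and 0.902. Tnfrsf1b was most like Mvp at 0.851, the class II antigen gene H2-Eb1 at 0.847, and Lcn2 at 0.840. Birc3 was closest to Vim, the gene of vimentin, at 0.913, with Dcdc2a at 0.908 and Adamts1 at 0.905. For Nfkb1 the nearest were Map7d1 at 0.864, Birc3 at 0.815, and Bmp1 at 0.815, so that Nfkb1 was the 1 member with another among its nearest 3. Rela lay nearest to Il34 (0.823), Slc20a1 (0.813), and Flna (0.807), and Relb to Hspb1 (0.853), Bspry (0.853), and Col1a1 (0.832). Nfkb2 was nearest to Col18a1 (0.826), Serpina10 (0.812), and Fcgr3 (0.812), Nfkbia to the ceruloplasmin gene Cp (0.845), Krt20 (0.840), and Col18a1 (0.839), and Tnfaip3 to Dcdc2a (0.762), Vat1 (0.759), and Tgfbi (0.758). Among the 45 pairs of members r ran from 0.467 for Relb with Nfkb1 to 0.850 for Birc3 with Tnfrsf12a. Centred within group and form of name, which takes out the contrast between UUO and CL kidneys, the same 2 pairs were at -0.422 and 0.152, and r ran from that of Relb with Nfkb1 to 0.65 for Nfkb1 with Birc3.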

How the data were processed

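Whole kidneys were lysed and sequenced with a Smart-seq3 type protocol. The authors deposited 1 table of raw counts per gene and library. Per the labels, STAR (2.7.3a), UMI-tools (1.1.4), and featureCounts of Subread (1.4.6-p5) were used with mouse build mm10; the sources used here name no annotation, strand setting, or handling of multi-mapped reads. The 75 columns matched 75 sample labels. Libraries are replicates as labelled, and p-values measure the spread between them, since the labels do not name the mouse of each.

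Counts were tested in R (4.3.3) with edgeR (4.0.16), by its quasi-likelihood test with TMM scaling, in 1 fit per arm over its 4 groups. Low genes were removed by filterByExpr, Benjamini-Hochberg adjustment ran over all genes of an arm, and genes with an adjusted p under 0.05 were called. A higher or lower level is called rose or fell when it passed. Fold changes are on the log2 scale, and SE and 95% intervals come from the test; where the log2 fold change lay within 0.05 of 0 no SE is given. The scripts were tested on simulated data. CPM are counts over the TMM-scaled total.

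The 10 genes, the pathway and marker lists, and the tests were chosen with earlier results of these data known. Named besides the members were, per list, the 4 genes with the lowest p for UUO in IgG mice and up to 4 with the lowest adjusted p among those called between genotypes or responses, and per member the 3 genes most like it. Alternatives were DESeq2 (1.42.0), edgeR's exact test, other scalings, filters, and sets of libraries, each library left out in turn, and the name form. Numbers shared by CL and UUO names in ABT mice (9, 11, and 12) were used to pair the kidneys, with correlations of 0.387, 0.199, and 0.160 between their deviations from group means. The mean for different numbers was -0.122, which the centring on group means ties to these values. No library pair looked like a duplicate. Gene positions are from GENCODE on GRCm38, and promoters and their build, GRCm38.p6, from RefSeq.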

Additional observations from a re-analysis of the deposited data

Results flagged for a closer look

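In 11 of 120 combinations of a gene and a group, 1 library stood apart from the rest by Dixon's test at 95%, which chance does in about 1 of 20 groups of this size. VeKO CL replicate 2 accounted for 3 of these, with Tnfrsf12a at 81.51 CPM (next library 32.27), Tnfrsf1a at 108.7 CPM (next 57.81), and Tnfrsf1b at 22.64 CPM (next 7.681, on 5 counts). VeKO UUO replicate 5 held Tnfrsf12a at 268.8 CPM (next 172.8), and VeWT CL replicate 3 held Relb at 28.15 CPM (next 10.87), on 5 counts.

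In the ABTAA arm, IgG CL replicate 2 held Nfkbia at 55.13 CPM (next 32.83), ABT CL replicate 5 held Tnfaip3 at 17.37 CPM (next 8.319), and ABT CL replicate 7 held Tnfrsf1b at 9.308 CPM (next 3.405). In the Pdgfb arm, PbWT CL replicate 4 held Rela at 49.31 CPM (next 31.04), PbWT UUO replicate 1 held Nfkb1 at 81.07 CPM (next 64.29), and PbWT UUO replicate 2 held the lowest Tnfrsf12a of its group, 167.9 CPM (next 198.9).

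The response of Nfkb1 to UUO differed between libraries labelled PbKO and PbWT, by -1.41 on the log2 scale in edgeR's test of the difference (SE 0.32, adjusted p = 0.00565), with PbKO UUO below PbWT UUO in all 4 libraries and 3 of 4 PbKO CL libraries above all PbWT CL libraries; in 1 fit over all 12 groups the adjusted p was 0.187.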

How the results depend on the processing

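No call of a member changed direction. Fewer of the 10 genes passed the low-count filter under some alternatives, and the counts fell with the number tested: in IgG and in ABT mice 6 of 6 tested rose by the exact test, 6 of 6 in a fit of the compared groups alone, 6 of 6 after thinning to the shallowest library, and 5 of 5 at a mean count of at least 20. Of all genes in IgG and ABT mice, 16.6% and 11.4% rose by the exact test and 16.2% and 11.1% in the compared groups alone. With thinning 15% and 10.6% rose, and at that mean count 20.5% and 13.6%. After thinning, 5 of 6 members rose in VeWT, 3 of 6 in VeKO, and 3 of 8 in PbKO mice, beside 7.01%, 2.23%, and 2.53% of all genes. Between the PbKO and PbWT responses 2 of 8 differed, beside 5.04% of all genes higher and 1.21% lower. In VeKO mice 10 rose with the name form as a covariate (10.7% of all genes), with names with a low line alone (10.5%), or in 1 fit over all 12 groups (7.63%). By contrast 0 of 9 rose with names without a low line alone (0%), and 2 without the libraries numbered 3, 4, 7, and 8 (0.852%). The fit over 12 groups called 2 in PbKO mice, 0 between PbKO and PbWT UUO kidneys, and 0 for the difference of their responses. Without TMM factors these last 2 counts were 10 and 2, beside 22.9% and 6.12% of all genes called lower. The median of all genes moved to -0.29 in each, and for UUO against CL it moved to between 0.08 and 0.41. The cause of the other changes was not tested.

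Leaving out each library in turn, the counts stayed at 10 in IgG, ABT, and PbWT mice and ran from 8 to 10 in VeWT, 5 to 9 in VeKO, and 5 to 7 in PbKO mice. Between PbKO and PbWT UUO kidneys they ran from 2, without PbWT UUO replicate 1 or 2, to 5. With a replicate block over the numbered libraries 7 of 7 tested rose in ABT mice, 9 in VeWT, and 10 in VeKO, and the same libraries without the block gave 7, 9, and 10. Of all genes, in the same order, 14.4%, 11.6%, and 12% rose with the block and 11.2%, 13.7%, and 10.5% without it. The block changed no call count between genotypes, which stayed at 0. Of the 8 numbers of the Veptp arm, 5 had a CL library that correlated best with the UUO library of its number (2, 3, 4, 7, and 8) and 3 did not (1, 5, and 6), with correlations from 0.0266 to 0.322, as a hint from the data and not the design; no numbers are shared in IgG mice or the Pdgfb arm. Of 60 correlations with the nearest genes, taken without centring or by Spearman's rho, 13 left the 95% interval of the main r. Low counts limited Relb, Nfkb2, Tnfaip3, and Tnfrsf1b in the ABTAA arm, where 10 to 12 alternatives could test them for UUO against CL and 13 to 16 the other 6 genes.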
